A study of Mus musculus with 13 samples.

Results

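Mammary tumors of mice were compared with normal lungs across the whole transcriptome, in the 7 of 13 RNA-seq samples of the study that fall into these groups and share preparation batch 2: 3 tumors and 4 normal lungs. The samples were chosen by their labels alone, and since 1 batch held both groups no batch term was needed. The study as a whole sequenced lungs of tumor-bearing mice, lungs of tumor-free mice and mammary tumors, in 2 preparation batches.

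The tumors came from female FVB mice, numbered 6877, 6880 and 6881, that had received 250000 Met1 cells in inguinal mammary fat pads at 8 weeks of age, and they were taken 2 weeks later. The normal lungs came from tumor-free female FVB mice of 10 weeks, numbered 6886, 6887, 6888 and 6893, the age at which the tumors were taken too. Total RNA of 20 mg of snap-frozen tissue went into libraries (100 ng of RNA, removal of ribosomal RNA) that were read on a NextSeq500 as single reads of 75 bp. Each sample is a separate mouse, and no mouse gave both a tumor and a normal lung. Met1 is 1 cell line, derived from a mammary carcinoma of an FVB mouse carrying the polyomavirus middle T transgene, so the tumors share 1 source of tumor cells, and the mouse tissue around the grafted cells is of the same strain. Normal mammary gland was not analysed here: every difference is between a tumor and another organ. Fewer cells of a type and less RNA per cell cannot be told apart in such bulk samples.

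The lung is built for gas exchange: thin alveolar type 1 cells lie against capillaries, type 2 cells secrete surfactant, and club and ciliated cells line the airways. The mammary epithelium consists of luminal cells, which make milk under the control of regulators such as Elf5 and Gata3, and contractile basal cells. Lung is the organ to which mammary carcinoma cells of this model commonly spread. A profile of the tumor beside that of normal lung tells which transcripts differ in level between these bulk tissues.

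The libraries held 9786993 to 13983506 estimated counts, of which 46.5% to 54.7% fell on protein-coding genes. Correlations of log2 CPM (counts scaled to a common library size with TMM factors, prior count 2 on the log scale) were 0.935 to 0.950 between tumors, 0.960 to 0.966 between normal lungs and 0.683 to 0.732 between the groups. Tumor 6880 stood apart in the share of counts on the rRNA-like models Gm12895 and Gm12896, 9.61% against 2.26% to 3.16% in the other 6 samples. Other such shares were higher in every tumor than in every lung. Gm26917 took 3.05%, 4.55% and 1.58% in tumors 6877, 6880 and 6881 and 0.635% to 0.818% in lungs. The rRNA model CT010467.1 took 2.5%, 2.06% and 1.13% against 0.412% to 1.06%. Rn7s1 alone took 19.5% to 35.9% of the counts of a library, and the groups overlapped. Per-sample CPM are given in the order 6877, 6880, 6881 for tumors and 6886, 6887, 6888, 6893 for lungs. Fold changes are tumor over lung on the log2 scale with their standard error (SE), and adjusted p-values are from edgeR's quasi-likelihood test with Benjamini-Hochberg adjustment over all genes tested, with a threshold of 0.05. The SE was worked back from the test, as the size of the fold change over the square root of its F statistic. Intervals of fold changes use this SE, which is only a rough guide where a group has almost no counts.

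Of 18038 genes tested, 5308 (29.4%) were higher in the tumors and 4938 (27.4%) were lower, and 7792 did not pass the threshold. Tests against a 2-fold change called 2305 genes (12.8%) higher and 2662 (14.8%) lower. The median log2 fold change over all genes was -0.02 and the median SE was 0.27. Among large differences, 535 genes were lower by at least 5 on the log2 scale, and 156 were higher by as much. The 95% interval of the difference lay within 1 on the log2 scale for 4278 genes, so that a 2-fold difference was outside it. Scaling by upper quartile moved the median of all genes by -0.14, with 46.0% of the calls higher in place of 51.8%, and limma on log2(TPM + 0.1) moved it by -0.13, with 42.6% of the calls higher, so small differences are relative to the TMM scale. On log2(TPM + 1) the medians of 36 of the 40 gene lists moved by over 1.5 times, and on log2(TPM + 0.1) those of 21.

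**Figure D1:**
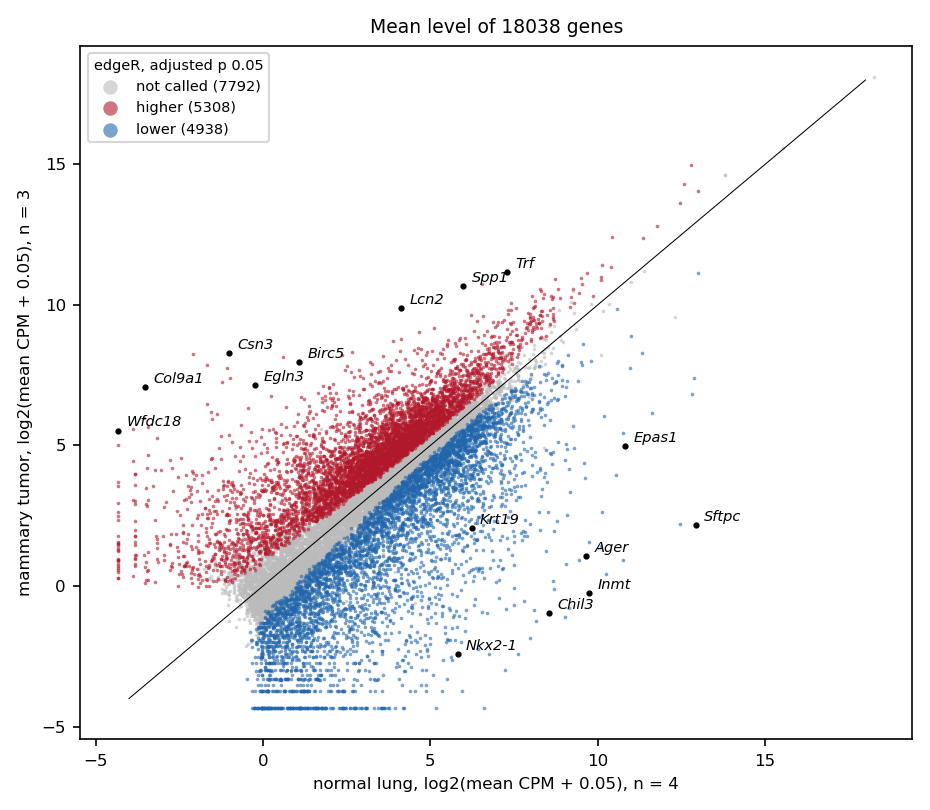
Mean level of each of 18038 tested genes in normal lung (x axis) and mammary tumor (y axis), both as log2(mean CPM + 0.05), coloured by edgeR call; the line marks equal levels. The cloud is wide on both sides, with 5308 genes called higher and 4938 called lower, and lung transcripts such as Sftpc and Nkx2-1 lie far below the line.

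Luminal mammary, basal and milk genes were called higher in the tumors than in the lungs more often than lower. Of the 23 tested members of a list of luminal mammary genes, 13 were higher in tumors, 3 were lower and 7 were not called, with a median log2 fold change of 1.85 against -0.02 for all genes. Among the basal genes 6 of 9 tested were higher and 0 lower (median 2.33), and 8 more, Krt5 among them, had too few counts to be tested. Of 10 tested milk and lactation genes 7 were higher and 1, Xdh, was lower (median 5.07, or 4.88 once genes with a group at 0 take their lower bound).

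Epcam, an epithelial adhesion molecule, was at 417, 304 and 269 CPM in the tumors and at 36.6, 30.2, 30.3 and 34.3 CPM in the lungs, which also hold epithelium. The groups lay far apart, with a log2 fold change of 3.33 (SE 0.19, edgeR adjusted p = 1.4e-06). The simple-epithelium keratins Krt8 and Krt18 were higher by 1.98 and 2.86 on the log2 scale. Krt19, their usual partner in ducts, went the other way: it was at 4.03, 3.78 and 4.58 CPM in tumors and 68.8 to 79.7 CPM in lungs, a log2 fold change of -4.18 (SE 0.16, edgeR adjusted p = 2.27e-07). Of 53 keratin genes 43 were not tested, and of the 10 tested 3 were higher and 7 were lower. Summed over the family, keratins were at 445 to 677 CPM in tumors and 398 to 416 CPM in lungs.

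Regulators of the mammary lineage separated the tissues. Elf5, which drives alveolar differentiation of the gland, was at 46.6, 35.9 and 49.7 CPM in tumors and 5.25 to 7.7 CPM in lungs (log2 fold change 2.73, SE 0.19, edgeR adjusted p = 3.46e-06). Gata3, the luminal zinc-finger factor, was higher by 2.44 and Trps1, a repressor of the same family, by 3.89. Tfap2c, an AP-2 factor of luminal cells, was at 44, 63.1 and 36 CPM in tumors and had 1 count in all 4 lungs, a count ratio of 2425 with an exact 95% interval of 435 to 95857. The interval, like all intervals and bounds from counts here, covers counting error only. Tfap2a was higher by 6.53 and Prlr, the prolactin receptor, by 4.87 on the log2 scale. Foxa1, Esr1, Erbb2, Erbb3 and Cdh1 were among the 7 luminal genes not called, with log2 fold changes from -0.32 for Cdh1 to 0.91 for Esr1, and Kit and Pgr were lower by -2.74 and -1.23. Erbb2 and Esr1 passed the threshold without tumor 6877, by 0.90 and 1.02, Erbb2 also without lung 6887, by 0.96, and Esr1 with voom, by 0.97. Cdh1 passed as lower with upper quartile scaling, among protein-coding genes alone and with DESeq2, by -0.45, -0.41 and -0.36.

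Milk genes separated the groups widely. Wfdc18, a whey acidic protein relative, was at 64.4, 22 and 52.2 CPM in tumors and at 0 counts in every lung, at least 734-fold higher when the lungs are set to 3 counts over the group. Csn3, kappa casein, was at 368, 243 and 329 CPM against 0.173 to 0.564 CPM, a log2 fold change of 9.39 (SE 0.31, edgeR adjusted p = 1.37e-07). Lcn2, an iron-siderophore binding protein, was at 985, 947 and 892 CPM in tumors and 15.6 to 19.3 CPM in lungs, and the 3 tumors barely differed. Trf, transferrin, was at 3227, 2119 and 1573 CPM against 147 to 163 CPM (log2 fold change 3.90, SE 0.26, edgeR adjusted p = 3.13e-06). The major beta casein Csn2 had 0, 1 and 30 counts in the tumors and was too low to test. Wap was at 5.71, 1.11 and 1.68 CPM, and at 0 counts in the lungs.

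Basal-cell genes were detected in every tumor. Krt14 was at 10.1, 4.16 and 6.48 CPM in tumors and at most 0.141 CPM in lungs (log2 fold change 6.26, SE 0.57, edgeR adjusted p = 1.87e-05). Trp63, the basal-cell master factor, was at 7.61, 7.42 and 2.29 CPM, lowest in tumor 6881, and at 0.0865 to 0.352 CPM in lungs. Lgr6, a receptor marking progenitors in several epithelia, and Itgb4, the hemidesmosome integrin, were higher by 5.72 and 4.64 on the log2 scale. Serpinb5, the maspin gene of myoepithelium, was at 48.8, 23.4 and 25.6 CPM with 0 counts in every lung, at least 512-fold higher. Egfr, Cdh3 and Col17a1 were the basal genes not called; Egfr passed as lower by -0.46 and -0.93 in limma fits of log2(TPM + 1) and log2(TPM + 0.1), and Col17a1 by -1.61 with the batch 1 libraries.

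**Figure D2:**
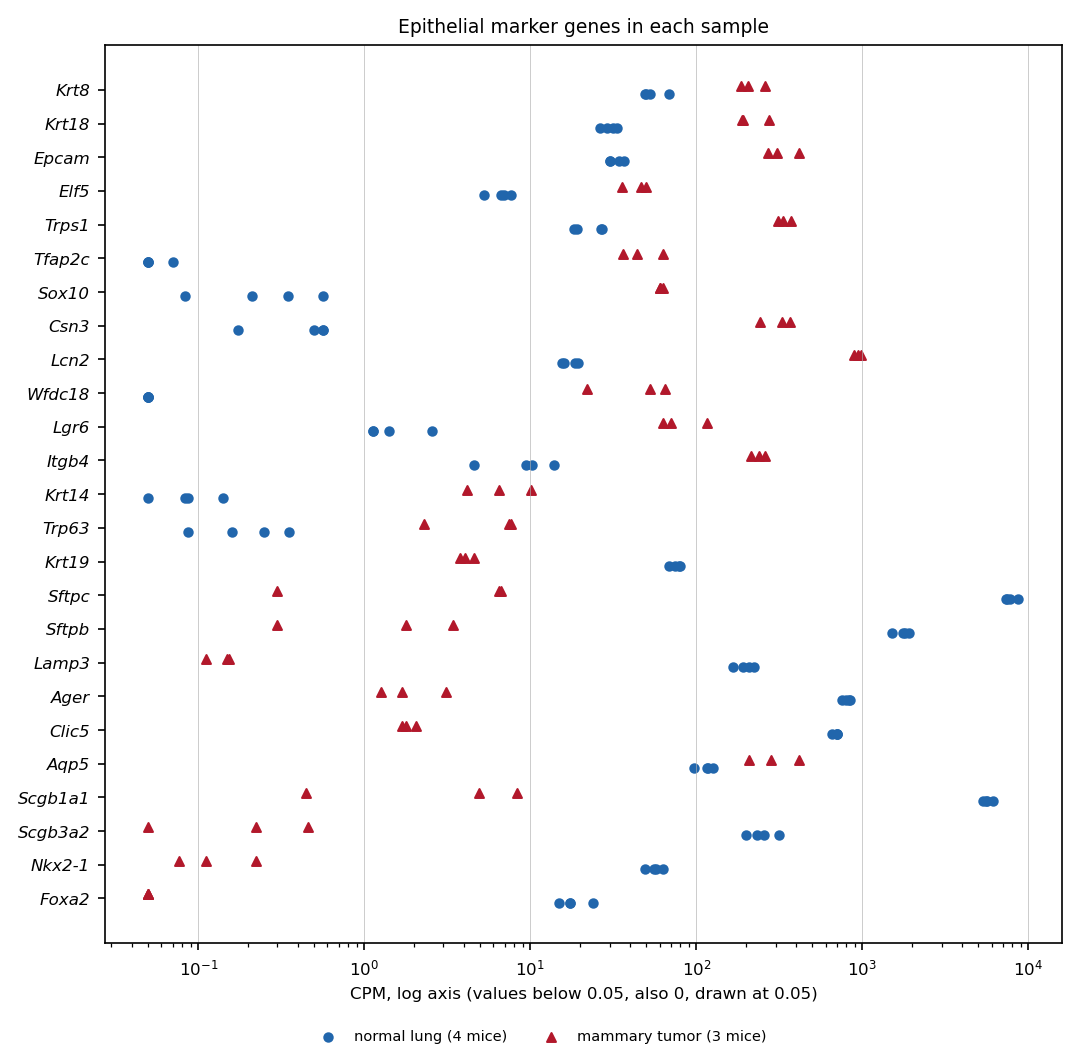
CPM (log axis) of mammary and lung epithelial genes in each of the 3 tumors (triangles) and 4 normal lungs (circles), with values below 0.05 drawn at 0.05. Mammary genes sit to the right in tumors and lung genes to the right in lungs, except that Krt19 is at 3.78 to 4.58 CPM in tumors against 68.8 to 79.7 CPM in lungs, and Aqp5 is higher in tumors.

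Cell-cycle genes were higher in the tumors almost without exception. All 39 genes of a mitosis list were higher, with a median log2 fold change of 3.80, and 36 of 37 DNA replication genes were, with a median of 2.70; Pold1, a polymerase delta subunit, was the member not called. On log2(TPM + 1), a scale that understates changes of low genes, the mitosis and replication medians were 0.91 and 0.89. Summed over the mitosis list the tumors held 1631 to 1708 CPM and the lungs 82.9 to 117 CPM. Birc5, the survivin gene of the chromosomal passenger complex, was at 316, 236 and 202 CPM in tumors and 1.6 to 2.75 CPM in lungs (log2 fold change 6.91, SE 0.26, edgeR adjusted p = 2.24e-07). Cdca8, its partner borealin, was at 73, 44.2 and 47.5 CPM against 0.951 to 1.83 CPM (log2 fold change 5.28, SE 0.27). Ccnb1, the mitotic cyclin, was higher by 5.41 and Anln, a scaffold of the cytokinetic ring, by 3.95.

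Among the replication genes Uhrf1, which directs maintenance methylation to new DNA, was at 87.7, 84.4 and 76.8 CPM in tumors and 2.25 to 5.99 CPM in lungs (log2 fold change 4.46, SE 0.31, edgeR adjusted p = 3.51e-06). Mcm6, a subunit of the replicative helicase, was at 85.9, 61.9 and 70.6 CPM against 3.75 to 9.23 CPM (log2 fold change 3.62, SE 0.31). Tyms and Tk1, both suppliers of thymidylate, were higher by 4.09 and 3.79. No tumor overlapped a lung for any of the 36 called members. Such gaps were common: of all 18038 genes tested, every tumor was above every lung for 5401 and below for 5404.

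Promoters of these lists were searched for the short motifs known from cell-cycle genes, in RefSeq sequences of 250 bases before to 50 bases after an annotated start (GRCm38.p6), on both strands. TTTGAA, the cell cycle homology region, stood in 28 of 36 promoters (77.8%) of the 34 mitosis genes found in the table, in 4 of 34 promoters (11.8%) of 29 replication genes and in 17.9% of all 32851 promoters. The E2F motifs TTTCCCGC or TTTGGCGC stood in 10 of 34 promoters (29.4%) of replication genes, in 0 of 36 promoters of mitosis genes and in 1.56% of all promoters. Such a match describes letters in a window and says nothing about binding. The promoters shown were chosen because their genes are named above and each holds one of the motifs, in capitals: Anln (chr9:22389157-22389456, minus strand), with its matches just after the start, Cdca8 (chr4:124936868-124937167, minus strand) and Mcm6 (chr1:128359656-128359955, minus strand), whose E2F matches lie before the start.
Anln: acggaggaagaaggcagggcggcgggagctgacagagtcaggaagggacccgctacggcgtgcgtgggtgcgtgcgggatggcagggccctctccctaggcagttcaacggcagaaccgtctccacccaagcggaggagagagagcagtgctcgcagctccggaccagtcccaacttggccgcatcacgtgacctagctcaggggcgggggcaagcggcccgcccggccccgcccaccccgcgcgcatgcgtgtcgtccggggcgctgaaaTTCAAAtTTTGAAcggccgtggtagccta
Cdca8: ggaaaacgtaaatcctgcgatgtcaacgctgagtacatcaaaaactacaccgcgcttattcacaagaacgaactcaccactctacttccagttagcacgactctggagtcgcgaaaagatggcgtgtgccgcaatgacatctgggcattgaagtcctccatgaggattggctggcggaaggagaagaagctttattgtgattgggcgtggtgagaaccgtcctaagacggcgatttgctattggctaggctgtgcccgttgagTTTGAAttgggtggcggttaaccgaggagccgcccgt
Mcm6: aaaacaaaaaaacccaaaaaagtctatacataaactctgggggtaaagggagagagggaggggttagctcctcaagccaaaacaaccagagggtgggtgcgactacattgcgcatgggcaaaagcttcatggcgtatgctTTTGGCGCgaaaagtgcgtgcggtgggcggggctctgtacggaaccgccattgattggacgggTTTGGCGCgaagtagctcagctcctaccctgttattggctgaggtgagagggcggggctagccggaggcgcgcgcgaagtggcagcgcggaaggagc

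Regulators of the cycle were mixed. In a list of oncogenes and growth-arrest genes 15 of 34 were higher, 9 lower and 10 not called (median 0.62). Over all genes tested 29.4% were higher and 27.4% lower. Myc, the growth-promoting factor, was at 42.6, 49.2 and 56.6 CPM in tumors and 6.65 to 8.17 CPM in lungs (log2 fold change 2.79, SE 0.16, edgeR adjusted p = 1.46e-06). Cdkn2a, which encodes the p16 and p19 inhibitors, was at 80.4, 73.8 and 56.1 CPM against 1.56 to 2.72 CPM, higher by 5.12 (SE 0.23). Cdkn1c, another inhibitor of cyclin-dependent kinases, was nearly absent from tumors at 0.224, 0 and 0.381 CPM, against 16.6 to 24.7 CPM in lungs (log2 fold change -6.69, SE 0.50). Fgfr1 was higher by 2.65 and Fgfr2, a receptor of the alveolar epithelium, was lower by -5.27 on the log2 scale.

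Genes of growth and of central metabolism were mostly higher. All 25 ribosome biogenesis genes were higher, with a median of 1.54; Npm1, nucleophosmin, was at 616, 358 and 376 CPM in tumors and 64.5 to 67.9 CPM in lungs (log2 fold change 2.77, SE 0.21, edgeR adjusted p = 6.36e-06). Of 20 glycolysis genes 16 were higher and 3 lower (median 1.97). Slc2a1, the basal glucose transporter, was at 194, 156 and 158 CPM against 6.17 to 9.05 CPM (log2 fold change 4.43, SE 0.18). Pgk1, phosphoglycerate kinase, was at 438, 284 and 227 CPM against 22.2 to 28.6 CPM (log2 fold change 3.71, SE 0.24). The glycolysis genes lower in tumors were Slc2a3, another glucose transporter, and the regulatory kinases Pfkfb3 and Pfkfb4, by -1.89, -1.58 and -3.40.

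Amino acid supply and stress genes were higher more often than lower. Of 21 tested, 14 were higher and 4 lower (median 1.67). Psat1, an aminotransferase of serine synthesis, was at 173, 118 and 141 CPM in tumors and 2.5 to 5.29 CPM in lungs (log2 fold change 5.10, SE 0.26, edgeR adjusted p = 8.7e-07), and Phgdh, the first enzyme of that pathway, was higher by 3.18. Slc7a5, a transporter of large amino acids, was at 193, 227 and 165 CPM against 3.04 to 9.51 CPM. Trib3 and Asns, targets of the stress factor Atf4, were higher by 3.84 and 2.90, whereas Ddit3, another gene of the stress response, was lower by -1.16.

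Hypoxia-responsive genes split. Of 20 tested 12 were higher, 4 lower and 4 not called (median 0.91). Egln3, an oxygen-sensing prolyl hydroxylase, was at 169, 152 and 108 CPM in tumors and 0.564 to 0.961 CPM in lungs (log2 fold change 7.46, SE 0.25, edgeR adjusted p = 1.37e-07). Car12, a membrane carbonic anhydrase, was at 71.2, 41 and 37.8 CPM against 2 counts in all lungs, a count ratio of 1190 with an exact 95% interval of 329 to 9835. Epas1, the hypoxia factor of endothelium, was at 25.2, 31.2 and 38.3 CPM in tumors and 1589 to 1957 CPM in lungs (log2 fold change -5.83, SE 0.25). Vegfa, the angiogenic growth factor that alveolar epithelium expresses at rest, was lower too, by -2.35. The core of the hypoxia response element, ACGTG on either strand, stood in 13 of 22 promoters (59.1%) of the 16 hypoxia genes in the RefSeq table, in 16 of 30 (53.3%) of 19 glycolysis genes and in 19.6% of all promoters. Egln3 (chr12:54203825-54204124, minus strand) and Pgk1 (chrX:106186850-106187149, plus strand) are shown as a gene of each list, with the matches in capitals; the window ends 50 bases after the start, and no match outside it was sought.
Egln3: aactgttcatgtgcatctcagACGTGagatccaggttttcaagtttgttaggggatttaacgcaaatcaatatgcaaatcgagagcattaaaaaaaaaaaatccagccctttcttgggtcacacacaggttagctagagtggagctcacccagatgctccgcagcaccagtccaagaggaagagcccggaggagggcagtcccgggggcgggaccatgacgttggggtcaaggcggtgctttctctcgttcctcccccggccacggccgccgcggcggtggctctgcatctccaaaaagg
Pgk1: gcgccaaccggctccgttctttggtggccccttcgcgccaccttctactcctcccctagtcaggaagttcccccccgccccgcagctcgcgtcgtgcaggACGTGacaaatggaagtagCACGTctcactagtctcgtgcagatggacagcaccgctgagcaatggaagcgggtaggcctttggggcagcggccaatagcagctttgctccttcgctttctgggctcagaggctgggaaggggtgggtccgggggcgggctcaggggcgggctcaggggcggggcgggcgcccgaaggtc

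**Figure D3:**
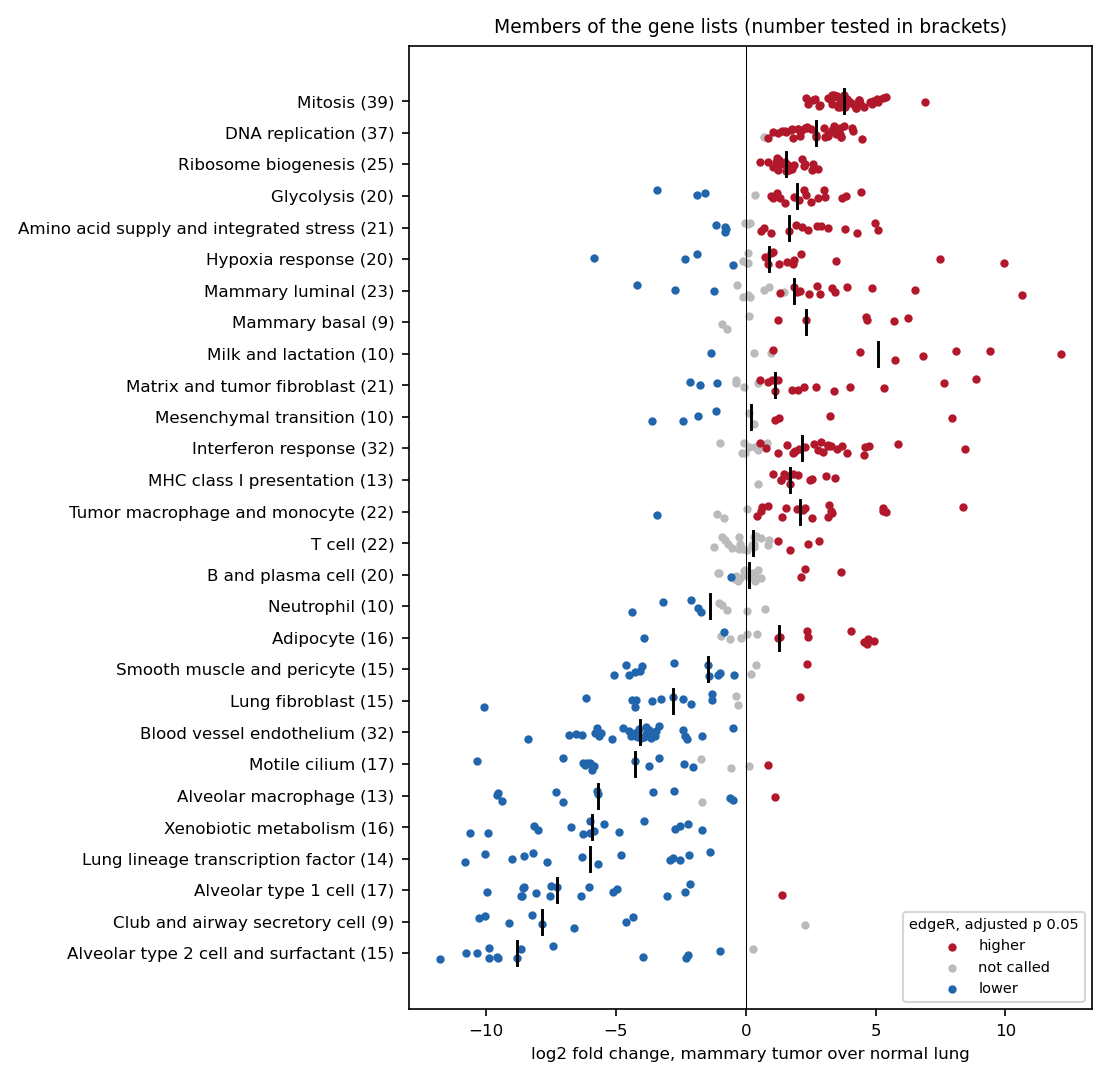
Log2 fold change of every tested member of 28 gene lists, with black ticks at the list median and the number of tested members in brackets. The mitosis members all lie above 0 with a median of 3.80, those of blood vessel endothelium all below 0 with a median of -4.08, and the T cell and B cell medians are 0.28 and 0.14.

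Matrix genes were higher in tumors more often than lower. Of 21 matrix and tumor fibroblast genes 14 were higher, 3 lower and 4 not called (median 1.12); with the batch 1 libraries of mice 6886 and 6888 in place of their batch 2 libraries 9 were higher and the median was 0.22, and it was 0.56 on log2(TPM + 1). Tnc, tenascin C, was at 83.4, 114 and 118 CPM in tumors and 7.84 to 12.3 CPM in lungs (log2 fold change 3.41, SE 0.21, edgeR adjusted p = 1.84e-06). Thbs2, a thrombospondin of remodelling matrix, was at 54.5, 38.8 and 50.2 CPM against 0.721 to 1.47 CPM (log2 fold change 5.33, SE 0.25). The collagenase gene Mmp13, stromelysin Mmp3 and the membrane protease Mmp14 were higher by 7.64, 4.03 and 2.02, while Sparc, Mmp2 and Mmp11 were lower by -1.78, -1.09 and -2.15. Col1a1 was higher by 2.25, and Fn1, Lox, Loxl2 and Col6a3 did not pass the threshold; without tumor 6881 Fn1 and Col6a3 were lower by -0.58 and -0.98, and Fn1 was lower by -1.07 with the batch 1 libraries.

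Several collagens of cartilage, named after their values were seen, were far higher in the tumors. Col2a1, the main cartilage collagen, was at 387, 373 and 163 CPM in tumors and 0 to 0.564 CPM in lungs (log2 fold change 10.54, SE 0.62, edgeR adjusted p = 1.64e-06). Col9a1, which decorates its fibrils, was at 158, 130 and 113 CPM against 2 counts in all lungs, a count ratio of 3291 with an exact 95% interval of 911 to 27183. Col9a2 had 3 lung counts and a count ratio of 588 (201 to 2855). Col11a1, which nucleates the same fibrils and is also a gene of activated fibroblasts, was at 215, 262 and 175 CPM against 0 to 1.13 CPM (log2 fold change 8.88, SE 0.55). All 3 tumors carried these transcripts, and no lung was above 1.13 CPM. Of 16 tested cartilage matrix genes and regulators 12 were higher, 1 lower and 3 not called. Sox9, the cartilage master factor, was higher by 6.87, Col9a3 by 7.96, Scrg1 by 6.40, Snorc by 5.26, Mia by 5.05, Cnmd by 4.39, Col11a2 by 2.82 and Runx2 by 1.39. All 8 genes of a group of glandular and neural crest regulators were higher too. Among them Sox10 was at 60.3, 62.6 and 60.6 CPM in tumors and 0.0834 to 0.561 CPM in lungs. Which cells carried these transcripts was not tested. Col11a2 lost its call in 2 of 20 alternatives, one of them without tumor 6877 (edgeR adjusted p = 0.0512). Chad, chondroadherin, was lower by -3.62, and Col10a1, of hypertrophic cartilage, Sox5 and Sox6 were not called. Acan, Comp, Hapln1, Matn1 and Matn3 had too few counts to be tested, so these cartilage matrix genes were absent or nearly absent from the tumors. Acan had 0 counts in every sample. In the tumors Matn1 had 0, 1 and 0 counts, Matn3 1, 0 and 0, Hapln1 1, 4 and 0, and Comp 3, 18 and 7.

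Mesenchymal transition genes did not move together. Of 10, 4 were higher, 4 lower and 2 not called (median 0.22), against 29.4% higher and 27.4% lower over all genes. Twist1 was at 19.4, 17.2 and 15.3 CPM in tumors with 3 counts in all lungs, a count ratio of 286 (exact 95% interval 97.3 to 1389). Vim, the intermediate filament of mesenchymal cells, was at 150, 173 and 154 CPM in tumors and 337 to 362 CPM in lungs (log2 fold change -1.13, SE 0.14, edgeR adjusted p = 0.000137). Zeb1 and Zeb2, repressors of epithelial genes, were lower by -3.62 and -1.85, and Snai2 by -2.42. Cdh2, Snai1 and S100a4 were the other members that were higher, and S100a4 lost its call without tumor 6877 or 6881 and in both limma fits of log2 TPM.

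**Figure D4:**
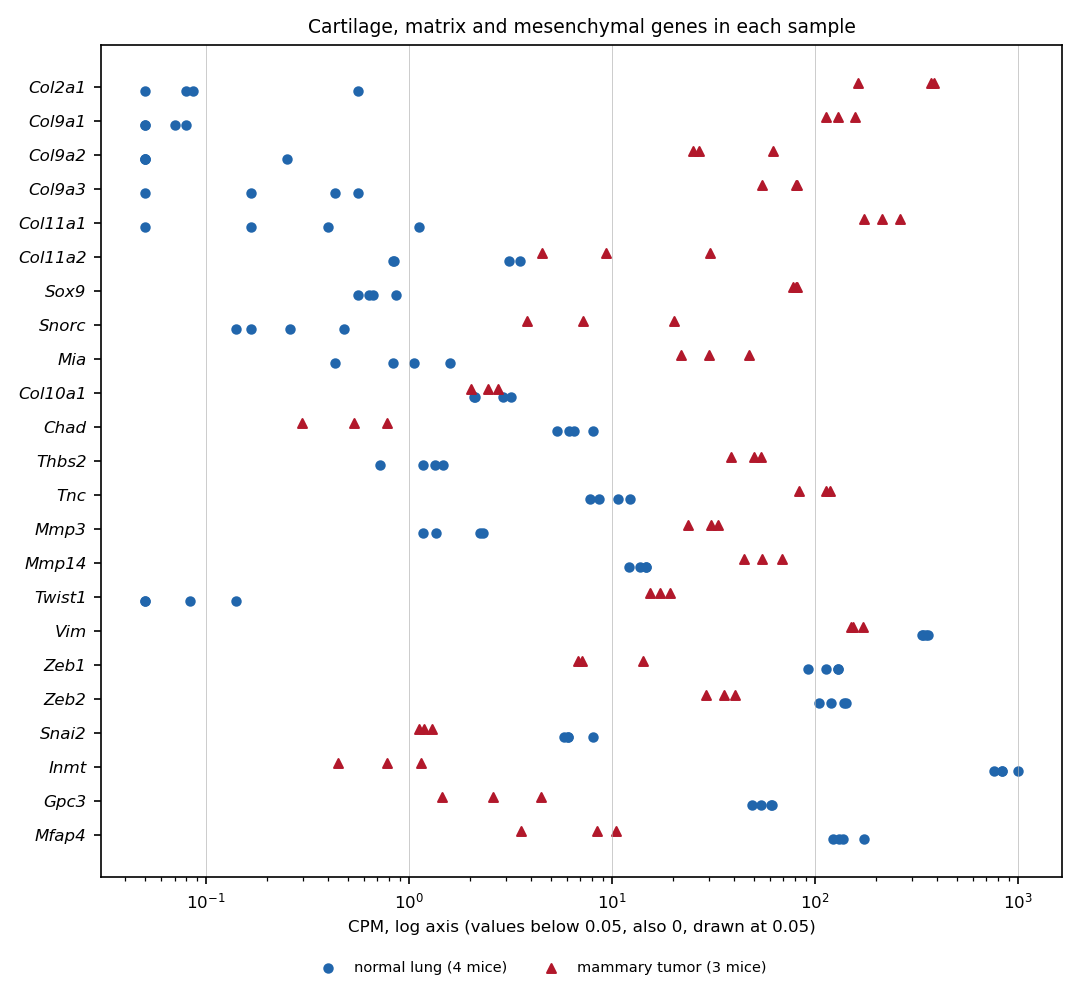
CPM (log axis) of cartilage, matrix and mesenchymal genes in each of the 3 tumors (triangles) and 4 normal lungs (circles), with values below 0.05 drawn at 0.05. Col2a1 is at 163 to 387 CPM in tumors and at most 0.564 CPM in lungs, while Vim, Zeb1, Zeb2 and Snai2 are lower in every tumor and Col10a1 overlaps.

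Genes of lung epithelium were lower in the tumors. Of 15 alveolar type 2 genes 14 were lower and 0 higher (median -8.83, or -8.68 with genes at 0 counts set to their bound). Of 17 type 1 genes 16 were lower (median -7.28), and of 9 tested club cell genes 8 were lower (median -7.84). Sftpc, surfactant protein C, was at 6.49, 0.297 and 6.63 CPM in tumors and 7302 to 8718 CPM in lungs (log2 fold change -10.78, SE 0.97, edgeR adjusted p = 1.79e-05). Scgb1a1, the secretoglobin of club cells, was at 4.93, 0.445 and 8.31 CPM against 5306 to 6157 CPM. In both transcripts tumor 6880 held the least, and all tumors lay far below all lungs; what puts these few counts into the tumors was not tested. Ager, the receptor on type 1 cells, and the chloride channel gene Clic5 were lower by -8.62 and -8.54. S100g, a calcium-binding protein, was at 28.2 to 43.1 CPM in lungs and 0 counts in every tumor, at least 425-fold lower in tumors. Aqp5, the water channel used as a type 1 marker, was the exception: it was at 418, 282 and 208 CPM in tumors and 96.8 to 126 CPM in lungs (log2 fold change 1.41, SE 0.23, edgeR adjusted p = 0.000669).

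Regulators of the lung lineage were lower. All 14 tested were lower (median -6.01). Nkx2-1, the master factor of lung epithelium, was at 0.112, 0.223 and 0.0763 CPM in tumors and 48.8 to 63.4 CPM in lungs (log2 fold change -8.54, SE 0.29, edgeR adjusted p = 1.37e-07). Foxa2, a pioneer factor of endoderm, was at 14.9 to 23.9 CPM in lungs with 0 counts in every tumor, at least 221-fold lower in tumors. Tbx4 and Tcf21, factors of lung mesenchyme, had 2 and 1 counts in all tumors, with count ratios of lung over tumor of 602 (166 to 4973) and 1444 (259 to 57056). Of 39 Hox genes 26 were not tested, and of the 13 tested 10 were lower. Hoxb5 was at 0.112, 0.223 and 0.229 CPM against 10.5 to 12.2 CPM. Hoxc8, of a cluster used in more posterior body regions, was the 1 tested Hox gene that was higher, by 7.30.

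Airway cilia and lung detoxification showed the same direction. Of 17 motile cilium genes 13 were lower, 1 higher and 3 not called (median -4.26, and -0.23 on log2(TPM + 1)). Dnah5, an outer-arm dynein, had 0 counts in tumors and 10.8 to 17.8 CPM in lungs. Foxj1, the master factor of motile cilia, did not pass the threshold: it was at 19.4, 19.4 and 12.4 CPM in tumors and 16.9 to 32.8 CPM in lungs, which overlap (log2 fold change -0.57, SE 0.25, edgeR adjusted p = 0.0822). It passed with upper quartile scaling, among protein-coding genes alone and without lung 6887. All 16 tested xenobiotic metabolism genes were lower (median -5.92). Cyp2b10, a cytochrome P450, was at 128 to 166 CPM in lungs with 3 counts in all tumors, a count ratio of 1781 (609 to 8639), and Fmo2, the flavin monooxygenase of lung, was at 0.448, 4.23 and 3.97 CPM against 621 to 1106 CPM.

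Vessel genes were lower in the tumors. All 32 tested blood vessel endothelial genes were lower, with a median of -4.08, and 11 of 12 lymphatic and mesothelial genes were (median -4.22, or -4.03 with genes at 0 counts set to their bound). Pecam1, the pan-endothelial adhesion molecule, was at 23.4, 21.7 and 34.2 CPM in tumors and 327 to 422 CPM in lungs (log2 fold change -3.85, SE 0.22, edgeR adjusted p = 1.57e-06). Cdh5, the endothelial cadherin, was at 13.2, 15.1 and 20.6 CPM against 299 to 385 CPM. Both transcripts were detected in every tumor. Tmem100 and Car4, which mark alveolar capillaries, were lower by -8.39 and -6.80, and Apln, a peptide of sprouting vessels, was lower by -0.51, the smallest difference of the list, a call lost without tumor 6880 or 6881 without lung 6886, 6887 or 6893, or in either limma fit of log2 TPM. Plvap, a component of vessel fenestrae, was lower by -3.71.

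Mural cells and fibroblasts of the lung were lower with exceptions. Of 15 smooth muscle and pericyte genes 12 were lower and 1 higher (median -1.47). Mylk, the smooth muscle myosin kinase, was at 8.62, 7.27 and 11 CPM in tumors and 197 to 216 CPM in lungs (log2 fold change -4.50, SE 0.19, edgeR adjusted p = 4.02e-07). Rgs5, a pericyte gene, was at 32.9, 37.8 and 42.2 CPM in tumors and 6.57 to 7.75 CPM in lungs (log2 fold change 2.37, SE 0.15, edgeR adjusted p = 2.74e-06). The other pericyte genes Pdgfrb, Cspg4, Higd1b and Cox4i2 were lower by -1.43, -1.06, -4.07 and -4.62. Of 15 lung fibroblast genes 12 were lower and 1, Scara5, was higher (median -2.81); Inmt, a methyltransferase of lung fibroblasts, was at 0.784, 0.445 and 1.14 CPM against 759 to 1006 CPM.

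Macrophage lists went in opposite directions. Of 22 tumor macrophage and monocyte genes 18 were higher, 1, Gpnmb, was lower and 3 were not called (median 2.08), while of 13 alveolar macrophage genes 11 were lower and 1 higher (median -5.68). C1qa, which encodes a chain of complement C1q, was at 168, 106 and 89.1 CPM in tumors and 9.59 to 15.3 CPM in lungs (log2 fold change 3.19, SE 0.25, edgeR adjusted p = 8.64e-06). Ccl8, a chemokine of monocytes and macrophages, was at 93.1, 75.1 and 95.8 CPM against 0.167 to 0.346 CPM (log2 fold change 8.35, SE 0.24), and Arg1, arginase, was higher by 3.16. Chil3, a chitinase-like protein of alveolar macrophages, was at 0.112, 0.297 and 0.992 CPM against 235 to 485 CPM (log2 fold change -9.53, SE 0.55). Adgre1 and Csf1r, expressed by macrophages at large, were at 17.5 to 21.5 and 55.3 to 68.6 CPM in tumors against 9.44 to 11.4 and 44.7 to 47.1 CPM in lungs. Csf1r had an edgeR adjusted p of 0.0168 and lost its call in 7 alternatives, with the opposite sign, -0.07, when batch 1 libraries replaced those of 6886 and 6888.

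Lymphoid genes were mostly not different beyond their spread, and the tumors varied. Ptprc, the leukocyte antigen CD45, was at 59, 36.7 and 75.6 CPM in tumors and 63.5 to 72 CPM in lungs (log2 fold change -0.22, SE 0.22, edgeR adjusted p = 0.422). Of 22 T cell genes 4 were higher, 0 lower and 18 not called (median 0.28). Larger shares of all genes tested were called, 29.4% as higher and 27.4% as lower. The 4 T cell genes were Pdcd1, Ctla4, Icos and Cd8a, by 2.83, 2.38, 1.24 and 1.69. Pdcd1, an inhibitory receptor, was at 3.58, 2.3 and 2.82 CPM against 0.173 to 0.56 CPM (edgeR adjusted p = 0.000289). Without tumor 6880, the tumor with the lowest T cell sum (65.8 CPM against 153 and 206 CPM), 8 T cell genes were higher. Of 12 natural killer genes 2 were higher, Klrk1 and Nkg7, with 4 higher without tumor 6880 and 1 without tumor 6877. Of 10 tested neutrophil genes 5 were lower and 5 not called (median -1.39), with 3 lower without tumor 6880 and 8 without lung 6893.

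B and plasma cell genes varied among the tumors. Of 20, 3 were higher, 1 lower and 16 not called (median 0.14, and -1.49 without tumor 6881). Both shares were below those of all genes, 29.4% higher and 27.4% lower. Cd79a, a chain of the B cell receptor, was at 0.672, 0 and 12.1 CPM in tumors and 3.5 to 9.13 CPM in lungs. Without tumor 6881 it was lower by -4.27 (edgeR adjusted p = 0.00512). Tumor 6881 was the highest of the 3 in T cell and B cell sums. In a group of lymph node genes 4 were tested and not called. Of these, Ms4a1 was at 1.12, 1.34 and 16.1 CPM and Cxcr5 at 0.56, 1.48 and 4.88 CPM in tumors. Trac too was highest in tumor 6881, at 12.7 CPM, while Cr2 was highest in tumor 6880, at 7.64 CPM. Glycam1 did not pass the filter, with 3, 0 and 327 counts in tumors and 0 in every lung. Whether tumor sample 6881 held lymph node tissue was not tested. Igkc and Jchain, antibody genes of plasma cells, were at 60, 23.7 and 119 and at 29.7, 13.2 and 44.2 CPM against 10.2 to 17 and 2.04 to 2.77 CPM in lungs, so that every tumor was above every lung.

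Interferon-responsive and MHC class I genes were mostly higher. Of 32 interferon genes 24 were higher, 0 lower and 8 not called (median 2.15), and of 13 MHC class I genes 12 were higher (median 1.72). Cxcl9, an interferon-gamma-induced chemokine, was at 325, 62.6 and 119 CPM in tumors and 0.0801 to 0.987 CPM in lungs (log2 fold change 8.45, SE 0.74, edgeR adjusted p = 1.44e-05). Zbp1, a sensor of nucleic acids, was at 73, 37.5 and 48 CPM against 1.55 to 2.8 CPM, and Tap1, the peptide transporter, at 156, 116 and 95 CPM against 13.8 to 15.1 CPM. Tumor 6877 was the highest in all of these. Ifit2, Rsad2, Usp18 and Mx2, classical type I interferon targets, were among those not called, with log2 fold changes of 0.35, -0.14, 0.13 and 0.81, and so was Ifit3. Ifit3 passed as lower in 4 of 20 alternatives, by -1.46 with voom, -1.12 with all 13 samples, -1.41 with the batch 1 libraries and -1.99 without tumor 6877. Mx2 passed as higher by 1.32 with the batch 1 libraries and by 1.28 without lung 6886. Of 10 MHC class II genes 4 were higher and 6 not called (median 0.66), against 29.4% higher over all genes. Of the class II genes 7 were higher without tumor 6880 and 2 in both limma fits of log2 TPM. Ciita, their master regulator, was at 42.3, 29.1 and 35.6 CPM against 11.7 to 20.9 CPM (log2 fold change 1.22, SE 0.22, edgeR adjusted p = 0.00122).

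**Figure D5:**
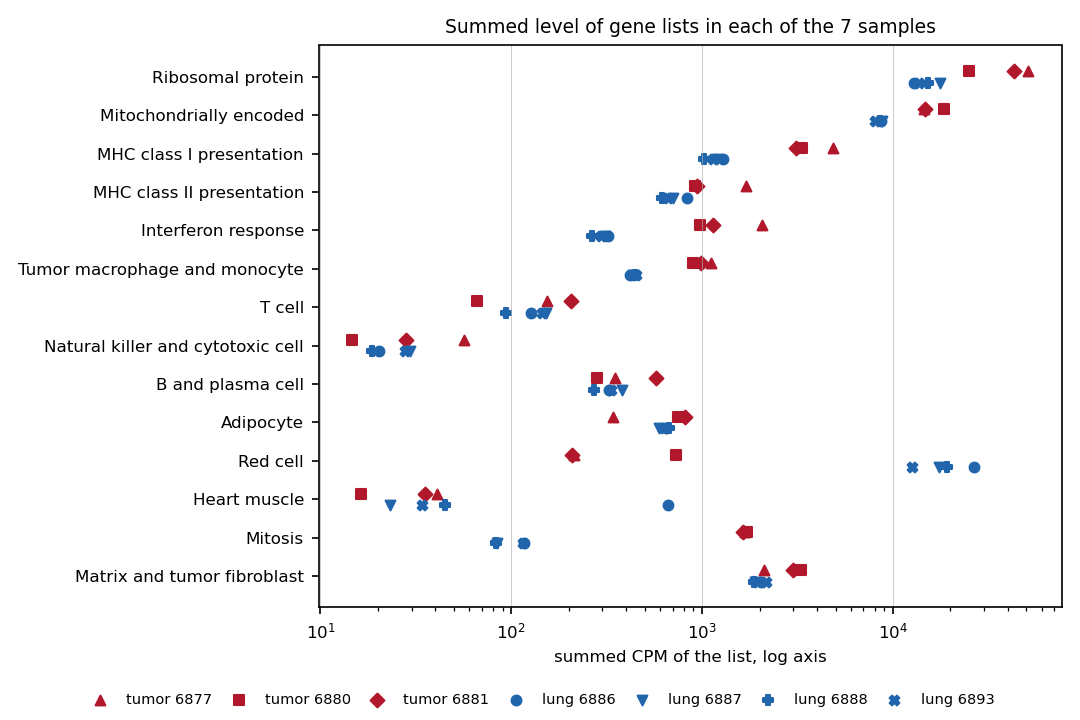
Summed CPM (log axis) of 14 gene lists in each tumor and each normal lung, 1 marker per mouse. Tumor 6877 is highest in interferon and MHC sums and tumor 6881 in T cell and B cell sums, tumor 6880 is lowest in T cell genes at 65.8 CPM and the lowest tumor in ribosomal protein genes, and lung 6886 stands alone in heart muscle genes at 660 CPM.

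Secreted factors went both ways. Of 34 tested, 15 were higher, 12 lower and 7 not called (median 0.17, and -0.25 without tumor 6877). The shares over all genes were 29.4% higher and 27.4% lower. Spp1, osteopontin, was at 1884, 1256 and 1700 CPM in tumors and 56.7 to 71 CPM in lungs (log2 fold change 4.67, SE 0.21, edgeR adjusted p = 5.01e-07). Pgf, placental growth factor, was at 58, 34.2 and 38.3 CPM against 0.846 to 1.52 CPM, and Csf3, Ccl2, Tnfsf11 and Cxcl1 were higher by 5.36, 4.02, 3.86 and 3.71. Bmp4, a morphogen of lung mesenchyme, was at 0.56, 0.668 and 0.458 CPM in tumors and 32.7 to 45.6 CPM in lungs (log2 fold change -6.17, SE 0.24), and Angpt1, the Tek ligand, was lower by -4.90. Tgfb1 and Tgfb2 were not called; Tgfb1, at -0.44, passed the threshold as lower in 7 of 20 alternatives, by up to -0.65 without tumor 6880.

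Markers of tissue around the graft were measured beside these lists. Of 16 tested adipocyte genes 9 were higher, 2 lower and 5 not called (median 1.27). Adipoq, adiponectin, was at 5.82, 13.7 and 17.7 CPM in tumors and 0.16 to 1.2 CPM in lungs, and Plin1, which coats fat droplets, at 17, 43.4 and 37.7 against 0.801 to 3.38 CPM; tumor 6877 was lowest in both. Their part in other results was not tested. Red cell genes were lower in 6 of 7 tested (median -5.45): Hbb-bs, adult beta globin, was at 91.6, 309 and 109 CPM against 5093 to 10036 CPM, highest in tumor 6880 among the tumors. Skeletal muscle genes were mostly untestable, and of 5 tested 2 were lower, Ttn and Tcap, both also heart genes.

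Heart muscle genes set 1 lung apart. Of 8 tested, 5 were lower in tumors (median -6.13), with 2, 3 and 3 lower without tumor 6877, 6880 or 6881. Myh6, the atrial myosin heavy chain, was at 363 CPM in lung 6886 and at 4.16, 10.7 and 8.04 CPM in the other lungs. It was at 0 counts in every tumor (edgeR adjusted p = 0.0187). With 3 counts set over the tumors, the bound for the pooled lungs was 1278-fold. That bound rests mostly on lung 6886 and does not hold for the other lungs. Myh6 was called lower without lung 6886 too (edgeR adjusted p = 0.00028). Myl7, the atrial light chain, was at 56.9 CPM in lung 6886 and 0.48 to 2.51 CPM in the others, with no count in tumors, and it lost its call in 6 of 18 alternatives, among them those without any 1 of the tumors. Myh6 lost its call in 4 of 19, with voom, in both limma fits of log2 TPM and without tumor 6877 (edgeR adjusted p = 0.0533).

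Genes of translation were higher in the tumors. Of 76 tested ribosomal protein genes 68 were higher, 0 lower and 8 not called (median 1.41). Their sum was 51082, 24991 and 43020 CPM in the tumors and 12807 to 17621 CPM in the lungs. Every tumor was above every lung, and tumor 6880 was the lowest tumor. Rpl38 was at 1074, 443 and 839 CPM against 87.3 to 110 CPM (log2 fold change 3.05, SE 0.28, edgeR adjusted p = 2.15e-05). Ran, the nuclear transport GTPase, showed the same order among tumors, at 1287, 311 and 869 CPM against 140 to 176 CPM. The replication-dependent histone genes Hist1h4k and Hist1h3h were higher by 3.43 and 4.85, but histone genes have near-identical copies among which reads can be split, so single values are uncertain. Of 13 mitochondrially encoded genes 10 were higher (median 0.70), with 3 and 4 of 13 by limma fits of log2(TPM + 1) and log2(TPM + 0.1), and 6 of 13 when all 13 samples were fitted with batch.

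Among the 3 tumors a few genes differed by far more than the rest. Adamts13, the protease of von Willebrand factor, was at 77.1 and 58.1 CPM in tumors 6877 and 6880 and at 0.0763 CPM in tumor 6881, with 0.519 to 1 CPM in lungs, so that tumor 6881 was below every lung. Adamts13 was called higher with edgeR and not with voom. Hist1h2ba was at 64.4 CPM in tumor 6880 and near 2.8 CPM in the others, and Hist1h2ah went the opposite way, at 52.8, 2.89 and 34.5 CPM. Cpeb2, a translational regulator, was at 166 CPM in tumor 6880 and at 8.84 and 16.1 CPM in the others, with 22.7 to 69.7 CPM in lungs. Nckipsd was at 28.6, 1.56 and 19.3 CPM and was higher than lung, by 0.91, when tumor 6880 was left out, and Zswim9 at 2.24, 32.5 and 78.9 CPM, with lungs from 6.57 to 87.1 CPM. These genes were picked for their spread. Tumor 6880 is also the library with the largest share of rRNA-like counts, whose part in these values was not tested.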

How the data were processed

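Gene-level estimated counts and TPM (length-scaled abundance) were deposited by the authors; the submitters' processing notes name Salmon, DESeq2 1.18.1 and mm10. RNA was fragmented according to its quality, which is not given per library. For each gene the ratio of estimated count to TPM in the authors' tables was the same in all libraries up to 1 factor per library. The largest deviation was 9.77e-15 on the log2 scale over 15667 genes. In these genes the estimated counts are therefore TPM times 1 factor per gene and 1 per library. Bounds and exact intervals from counts take the rounded estimates as counts of reads. Of 46679 gene IDs 46269 were named from GENCODE M21 (GRCm38) and 410 were not. Estimated counts were rounded and analysed in R 4.3.3 with edgeR 4.0.16 (filterByExpr, TMM factors, two-sided quasi-likelihood test, Benjamini-Hochberg adjustment), with limma 3.58.1 and DESeq2 1.42.0 as alternatives besides other scaling, filters, controls and samples left out. The fits were also run on simulated counts in which few genes were shifted, by less than many of the differences here. That run does not cover a comparison with so many and such large differences.

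The members of the 40 gene lists were chosen with earlier results of these data known, so the lists are no independent support. Genes were named by rule: the 12 largest and the 12 most abundant large differences in each direction, up to 5 per list by p, list markers, 8 by range among tumors and 6 against their list, those by size and range above a floor of 3 in mean log2 CPM. Cartilage collagens, lymph node genes, Sox10 and single list members such as those not called were named after their values were seen. Where a group had 0 counts, the fold bound sets it to 3 counts. Sequences were taken from RefSeq promoters of GRCm38.p6.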

Additional observations from a re-analysis of the deposited data

Results flagged for a closer look

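For the 4 normal lungs, 194 values of named genes and list sums with a mean of at least 0.5 CPM were screened for a sample far from the others by Dixon's test, and 10 were picked out. Chance alone picks about 1 in 20 groups, and the tumors, 3 in number, were not screened. Lung 6886 held 660 CPM of heart muscle genes in sum, against 23.1 to 44.7 CPM in the other lungs. In the same lung Myh6 was at 363 CPM against 4.16 to 10.7 CPM, Myl7 at 56.9 CPM against 0.48 to 2.51 CPM and Tcap, a sarcomere protein, at 23.7 CPM against 1.2 to 1.58 CPM. Lung 6886 also held more Cdh2, at 2.82 CPM against 0.721 to 1 CPM, more Cpeb2, at 69.7 CPM against 22.7 to 28.3 CPM, and less Clic5, at 659 CPM against 699 to 703 CPM. Lung 6893 held more Pgr, at 3.29 CPM against 2.16 to 2.25 CPM, and less Tcf21, at 35.9 CPM against 41.6 to 42.4 CPM. Lung 6888 held more Snai2, at 8.09 CPM against 5.78 to 6.09 CPM. What sets these values apart was not tested.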

How the results depend on the processing

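No paired analysis was possible because tumors and normal lungs came from different mice, so numbers in the labels join no tumor to these lungs. Some lungs of tumor-bearing mice come from the same mice as the tumors, but they are not part of the main comparison. Across the alternatives 4093 to 5317 genes were higher and 4382 to 5522 lower outside the fits without 1 sample, which gave 4790 to 5250 and 4389 to 4953. Between 8437 and 10028 calls were shared with the main result. TPM + 1 and TPM + 0.1 stand for limma on log2 values with that pseudocount, and fits that leave out 1 sample are given as the lowest and highest value; the cause of the changes was not tested. Past a 2-fold change, genes higher, 2305 in the report's fit, came to 267 with TPM + 1, 918 with TPM + 0.1. Past a 2-fold change, genes lower, 2662 in the report's fit, came to 373 with TPM + 1, 1359 with TPM + 0.1. Matrix and tumor fibroblast members called higher, 14 in the report's fit, came to 9 with the batch 1 libraries. Neutrophil members called lower, 5 in the report's fit, came to 3 with the batch 1 libraries, 3 to 8 leaving out 1 sample. T cell members called higher, 4 in the report's fit, came to 4 to 8 leaving out 1 sample. Natural killer and cytotoxic cell members called higher, 2 in the report's fit, came to 1 with TPM + 1, 1 with TPM + 0.1, 1 to 4 leaving out 1 sample. MHC class II presentation members called higher, 4 in the report's fit, came to 2 with TPM + 1, 2 with TPM + 0.1, 3 to 7 leaving out 1 sample. Skeletal muscle members called lower, 2 in the report's fit, came to 1 with DESeq2, 1 with TPM + 1, 1 with TPM + 0.1. Heart muscle members called lower, 5 in the report's fit, came to 2 with DESeq2, 2 with voom, 1 with TPM + 1, 2 with TPM + 0.1, 3 with all 13 samples, 2 to 6 leaving out 1 sample. Mitochondrially encoded members called higher, 10 in the report's fit, came to 3 with TPM + 1, 4 with TPM + 0.1, 6 with all 13 samples. The Secreted factor median, 0.169 in the report's fit, came to -0.25 to 0.416 leaving out 1 sample. The T cell median, 0.279 in the report's fit, came to -0.0956 with voom, -0.0962 with TPM + 0.1, -0.437 to 0.651 leaving out 1 sample. The Natural killer and cytotoxic cell median, 0.0844 in the report's fit, came to -0.053 with upper quartile, -0.057 with library size only, -0.185 with the 10-count filter, -0.00811 with protein-coding genes, -0.0926 with voom, -0.000572 with TPM + 1, -0.0133 with TPM + 0.1, -0.443 to 0.526 leaving out 1 sample. The B and plasma cell median, 0.143 in the report's fit, came to -0.11 with protein-coding genes, -0.658 with voom, -0.0327 with TPM + 1, -0.302 with TPM + 0.1, -1.49 to 0.546 leaving out 1 sample. Among single genes the sign changed as follows. Cd79a, -0.399 in the report's fit, came to -4.27 to 0.195 leaving out 1 sample. Cdh3, 0.108 in the report's fit, came to -0.0207 with upper quartile, -0.0101 with library size only, -0.00233 with TPM + 1, -0.0221 with TPM + 0.1, -0.0109 with all 13 samples, -0.446 with the batch 1 libraries, -0.315 to 0.309 leaving out 1 sample. Col10a1, -0.0935 in the report's fit, came to 0.338 with the batch 1 libraries, -0.2 to 0.0251 leaving out 1 sample. Cpeb2, 0.801 in the report's fit, came to -0.122 with voom, -0.184 with TPM + 0.1, -1.54 to 1.32 leaving out 1 sample. Csf1r, 0.432 in the report's fit, came to -0.0707 with the batch 1 libraries. Esr1, 0.911 in the report's fit, came to -0.0278 with the batch 1 libraries. Foxa1, 0.0864 in the report's fit, came to -0.0452 with upper quartile, -0.0305 with library size only, -0.0342 with TPM + 1, -0.0913 with TPM + 0.1, -0.0157 with all 13 samples, -0.0448 with the batch 1 libraries, -0.298 to 0.234 leaving out 1 sample. Ifit2, 0.349 in the report's fit, came to -0.189 to 0.649 leaving out 1 sample. Lox, 0.466 in the report's fit, came to -0.0163 with the batch 1 libraries. Loxl2, -0.0565 in the report's fit, came to -0.207 to 0.0209 leaving out 1 sample. Nckipsd, 0.363 in the report's fit, came to -0.479 with voom, -0.313 with TPM + 0.1, -0.399 with the batch 1 libraries, -0.34 to 0.909 leaving out 1 sample. Ptprc, -0.22 in the report's fit, came to -0.477 to 0.0186 leaving out 1 sample. Rsad2, -0.139 in the report's fit, came to -0.569 to 0.628 leaving out 1 sample. Sox6, -0.101 in the report's fit, came to -0.41 to 0.144 leaving out 1 sample. Usp18, 0.126 in the report's fit, came to -0.0181 with upper quartile, -0.0127 with library size only, -0.0375 with TPM + 0.1, -0.267 to 0.285 leaving out 1 sample. Zswim9, -0.298 in the report's fit, came to 0.433 with the batch 1 libraries, -1.4 to 0.198 leaving out 1 sample. Of list medians, 36 of 40 moved by over 1.5 times with TPM + 1, 21 with TPM + 0.1 and 6 or fewer with each other alternative. Other calls of named genes that were lost are Atf4 in 3 of 20 alternatives, Nkg7 in 3 of 20 and Tcap in 2 of 19. Leaving out structural RNA genes and the rRNA-like models, chosen after seeing the data, left 5097 genes higher and 5038 lower. With 3 tumors and 9786993 to 13983506 counts a library, low genes such as Csn2 and Krt5 were not testable.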
